A study of Mus musculus with 43 samples.

Results

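The effect of environmental enrichment (EE) on the nuclear RNA of cortical neurons was described in female mice across all genes, in 12 of the 43 libraries of the study: the 6 EE and the 6 standard housed (SH) libraries whose columns stand in a single count table. All 12 came from wildtype females of Swiss Webster, an outbred stock, 2 months of age at collection, that had been weaned on postnatal day 25. EE mice lived in a larger cage with a running wheel, a tube, added nesting and toys that were changed every few days, and SH mice lived in standard cages. Nuclei of the frontal cortex were fixed with paraformaldehyde, stained for NeuN, a protein of neuronal nuclei, and sorted, and RNA was taken from the sorted nuclei. The column names carry the numbers 2, 3, 4, 7, 8 and 9 in both groups, and these follow the replicate numbers 1 to 6 of the labels. The labels say neither what a number marks nor that replicates are separate animals, so the p-values measure the spread between these libraries, which may be in part technical.

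RNA in a nucleus is largely newly made and still holds introns, so its level follows transcription more closely than the level of finished messenger RNA does. When a neuron fires, calcium entry switches on immediate early genes within minutes. Some of these encode transcription factors, such as Fos, Egr1 and Npas4, and others act at synapses or damp the signal, such as Arc and Dusp1. The transcription factors in turn act on later genes, among them genes of neuropeptides and of synaptic proteins. Housing with running, novelty and exploration is known to alter cortical synapses and dendrites in rodents, and cell adhesion, axon guidance and matrix molecules are among the proteins that organise synapses.

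Each library held 10.6 to 15.4 M (mega) counts. No source used here states which bases were counted: the length given for each gene in the table equals its whole span, from which counting over introns as well as exons was inferred. Of 53379 gene rows, 14587 had enough counts to be tested. Total counts averaged 13440000 ± 1575000 in EE and 12240000 ± 865200 in SH libraries (SD, n = 6 each; two-sided exact permutation p = 0.141, adjusted p = 0.54 over 18 values compared). Genes of mitochondrial DNA had 0 counts in every library. Neuronal markers were abundant in every library, with a sum over 8 markers of 7324 to 7933 counts per M counts (CPM) in EE and 7375 to 8099 CPM in SH libraries. Of these 8, Tubb3 had 0 counts in every library. Markers of glia and vessels were also detected, and SH replicate 2 stood apart in them: its 13 oligodendrocyte markers summed to 454.6 CPM, against 143.7 to 203.5 CPM in the other 5 SH libraries and 160.7 to 293.3 CPM in EE libraries. Its 13 astrocyte markers summed to 1254 CPM, against 752.3 to 897.1 CPM in the other SH libraries and 648.2 to 884.1 CPM in EE libraries.

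The 12 genes with the smallest p in each direction, of those with a name that is not of the Gm or Rik form and enough counts, differed between EE and SH libraries by at most 2.12-fold, among them the adhesion gene Tenm3 and the matrix gene Abi3bp, higher in EE, and the glypican gene Gpc6, lower in EE. None of the 14587 genes reached an adjusted p under 0.05 (edgeR quasi-likelihood F test, Benjamini-Hochberg adjustment; 0% called). The smallest adjusted p was 0.0738, for 4921539H07Rik, outside the naming rule, a gene model that averaged 37.6 ± 3.62 CPM in EE and 56.5 ± 8.26 CPM in SH libraries (SD, 6 libraries each) without overlap (log2 fold change -0.58 ± 0.090, SE; adjusted p 0.0182 with the library number as a block). At an unadjusted p under 0.05 there were 661 genes higher (4.53%) and 604 genes lower (4.14%) in EE libraries, 8.67% of the genes tested. Scaling by library totals instead of TMM gave 885 higher and 424 lower at that level. For 80 genes (0.548%) the EE and SH libraries did not overlap, 43 of them higher (0.295%) and 37 lower (0.254%) in EE. Without SH replicate 2, 85 genes passed the adjusted threshold, 37 higher and 48 lower in EE. When each EE library was set against the SH library of the same number by adding the number to the model as a block, 95 genes passed (0.651%), 51 higher (0.35%) and 44 lower (0.302%). The block is given beside the unpaired values, since the labels do not say that same-numbered libraries belong together. The number called with the block also depended on single numbers: it lay between 5 and 308 when each number was left out in turn. DESeq2 called 121 genes in the same unpaired comparison, 60 of them among the 95, and limma voom called 0.

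Tenm3 was the gene with the smallest p among the named genes that were higher in EE. It encodes teneurin-3, an adhesion protein through which neurons choose synaptic partners. Tenm3 (chr8:48227682-48843951, mm10, minus strand) was at 373 to 481 CPM with a median of 443 in EE libraries and at 303 to 387 CPM with a median of 337 in SH libraries. EE lay above SH in each of the 6 numbers, and the groups overlapped only in the lowest EE and the highest SH library. Its log2 fold change of EE over SH was 0.37 ± 0.064 (SE; unadjusted p = 1.42e-05, adjusted p = 0.0753), and the adjusted p was 0.00571 with the number as a block.

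Of the 12 genes with the smallest p that were higher in EE, 6 had EE and SH libraries that did not overlap. Abi3bp, which encodes an extracellular matrix protein, was at 119 to 197 CPM in EE libraries (median 165), against 51.9 to 97.9 CPM in SH libraries (median 77.5). Its log2 fold change was 1.08 ± 0.17 (SE; adjusted p = 0.0976), and it did not pass with the block (adjusted p = 0.187). The highest SH library of Abi3bp was thus below the lowest EE library. Tfap2d, which encodes the transcription factor AP-2 delta, was at 5.39 to 10.8 CPM with a median of 7 in EE libraries and at 3.09 to 5.09 CPM with a median of 4.09 in SH libraries. The groups did not overlap, and the log2 fold change was 0.89 ± 0.17 (SE; adjusted p = 0.0933). Tfap2d is also among 11 markers of olfactory cortex and amygdala neurons. The 11 summed to 495.5 to 665.4 CPM in EE and to 444.5 to 619.7 CPM in SH libraries, which overlap. A difference in the number of such cells cannot be told apart from a difference in RNA per cell here. Lrrc9, a gene of a leucine-rich repeat protein, was at 9.78 to 13.6 CPM in EE libraries (median 11.2), against 5.98 to 8.57 CPM in SH libraries (median 7.45), again without overlap, with a log2 fold change of 0.64 ± 0.12 (SE; adjusted p = 0.0839).

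Abca4, which encodes a transporter known from photoreceptors, was at 17.8 to 24.3 CPM with a median of 21 in EE libraries and at 13.2 to 16.9 CPM with a median of 15.5 in SH libraries, and no EE library was as low as any SH library. Pim3, a gene of a serine/threonine kinase, was at 2.15 to 3.68 CPM in EE libraries (median 2.85), against 1.25 to 1.64 CPM in SH libraries (median 1.5). Lmo7, a gene of a LIM domain protein, was at 138 to 172 CPM with a median of 150 in EE libraries and at 102 to 137 CPM with a median of 123 in SH libraries. The log2 fold changes were 0.48 ± 0.093 for Abca4, 1.00 ± 0.21 for Pim3 and 0.33 ± 0.068 for Lmo7 (SE), with adjusted p-values of 0.0933, 0.0996 and 0.0996 in the same order.

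Bmpr1b encodes a type I receptor for bone morphogenetic proteins. It was at 32 to 46.9 CPM in EE libraries (median 39), against 23.7 to 36.5 CPM in SH libraries (median 25.4), and the highest SH value belonged to SH replicate 2. The log2 fold change was 0.53 ± 0.11 (SE; adjusted p = 0.0996), and with the block its adjusted p was 0.00571. The other 4 of the 12 genes were Fras1 (basement membrane), Kcnj4 (an inward rectifier potassium channel), Dnah11 (an axonemal dynein) and Tll1 (a secreted metalloprotease), with log2 fold changes of 0.32, 0.38, 0.91 and 0.49. Over the 12 genes the fold changes were at most 2.12 and the adjusted p-values from 0.0753 to 0.12.

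**Figure D1:**
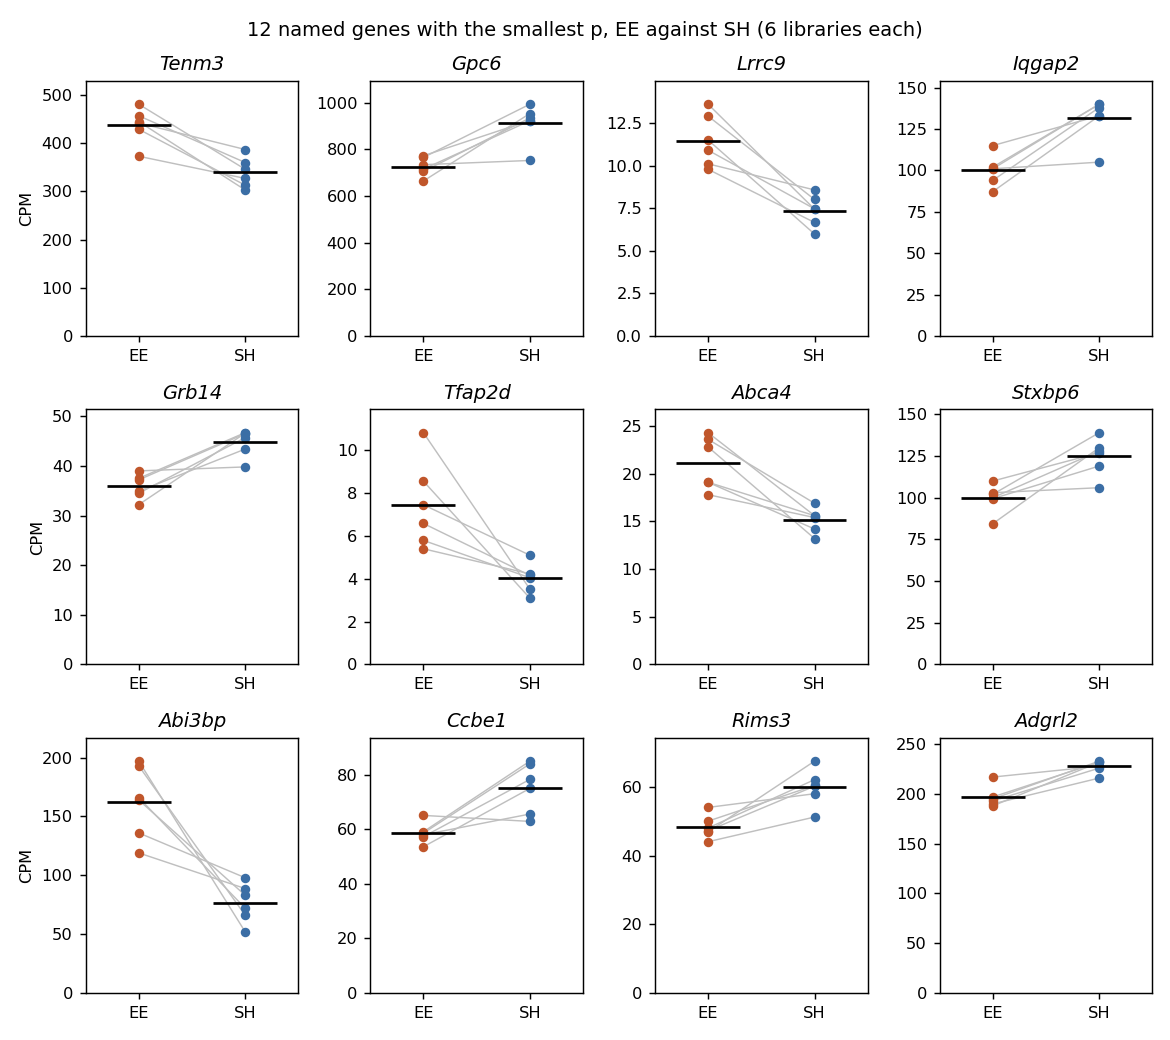
CPM in each library of the 12 with the smallest p, in either direction, among the 24 named genes, with EE at the left and SH at the right of each panel, grey lines joining libraries of the same number and black bars at the group means. Lrrc9, Grb14, Tfap2d, Abca4 and Abi3bp have no overlap between EE and SH.

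The 12 genes with the smallest p that were lower in EE differed by at most 1.38-fold. Of these 9 are longer than 100 kb, as are 8 of the 12 higher genes and 18.1% of all genes tested. Gpc6 encodes a glypican, a heparan sulphate proteoglycan anchored to the cell surface. Gpc6 (chr14:116925315-117976544, plus strand) was at 664 to 772 CPM with a median of 725 in EE libraries and at 752 to 993 CPM with a median of 929 in SH libraries. The lowest SH value was that of SH replicate 2, and EE lay below SH in each number, as it did for 3.08% of all genes. The log2 fold change was -0.33 ± 0.058 (SE; unadjusted p = 1.55e-05, adjusted p = 0.0753; 0.0156 with the block).

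Adgrl2 encodes latrophilin-2, of a receptor family that binds teneurins. It was at 188 to 217 CPM in EE libraries (median 194), against 216 to 233 CPM in SH libraries (median 230), and only EE replicate 1 reached into the SH range. Its log2 fold change was -0.21 ± 0.044 (SE; adjusted p = 0.0996), opposite in direction to that of Tenm3. A pair of presynaptic genes stood here as well, Rims3 of the active zone and Stxbp6, whose product binds SNARE proteins. Rims3 was at 44.1 to 54.1 CPM with a median of 47.7 in EE libraries and at 51.3 to 67.6 CPM with a median of 60.4 in SH libraries. Stxbp6 was at 84.4 to 110 CPM in EE libraries (median 101), against 106 to 139 CPM in SH libraries (median 128). Their log2 fold changes were -0.31 ± 0.063 and -0.32 ± 0.065 (SE), with adjusted p-values of 0.0996 and 0.0976.

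Grb14, whose product inhibits the insulin receptor, was at 32.2 to 39 CPM with a median of 36 in EE libraries and at 39.8 to 46.7 CPM with a median of 46.1 in SH libraries, with no overlap between the groups (log2 fold change -0.32 ± 0.061, SE; adjusted p = 0.0933). Iqgap2, a gene of a scaffold for Rac1 and Cdc42, was at 87.2 to 115 CPM in EE libraries (median 101), against 105 to 140 CPM in SH libraries (median 136), and the lowest SH library was again SH replicate 2. Gabbr2, which encodes a subunit of the GABA-B receptor, was at 892 to 1060 CPM with a median of 957 in EE libraries and at 987 to 1220 CPM with a median of 1160 in SH libraries. The log2 fold changes were -0.39 ± 0.072 for Iqgap2 and -0.24 ± 0.053 for Gabbr2 (SE; adjusted p = 0.0933 and 0.12). Sorcs3, of the sortilin receptor family, was at 327 to 410 CPM in EE libraries (median 345), against 370 to 458 CPM in SH libraries (median 420), with EE below SH in all 6 numbers. The other 4 were Ccbe1 (a secreted matrix protein), Zbtb40 and Zbtb7c (zinc finger proteins) and Rpa1 (which binds single-stranded DNA), with log2 fold changes of -0.36, -0.41, -0.33 and -0.46.

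Without SH replicate 2, 10 of the 12 higher and 10 of the 12 lower genes passed the adjusted threshold. With the block, 9 of the higher and all 12 of the lower genes passed. Since the 24 genes were taken for their small p in these libraries, these counts describe them and are no independent evidence.

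Among the 29 gene lists, immediate early transcription factors had the largest median difference. All 15 tested genes of that list were higher in EE, against 50.6% of all genes tested, with a median log2 fold change of 0.62 against 0.0019 over all genes. The list also holds Btg2 and Ier5, whose products are not classed as DNA-binding transcription factors. Of the 15, 8 had an unadjusted p under 0.05, all higher (4.53% of all genes), and 8 were higher in EE in each of the 6 numbers (2.96% of all genes). With the block, Fosb, Npas4 and Fos passed the adjusted threshold (0.35% of all genes passed as higher). Ier2, Atf3, Maff, Klf2 and Klf4 had too few counts to be tested. The low-count filter asks for enough counts in 6 libraries, as many as a group holds. Fosb was at 0.155 to 1.14 CPM and Fos at 0.167 to 2.92 CPM in SH libraries. Such genes may have been kept mainly through their EE libraries, so the count of 15 higher is not free of that selection.

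The start regions of 4 of these genes are shown, those with the smallest p in the group apart from Egr1, since letters there are where transcription factors of the activity response are known to bind. They run from 250 bases before to 50 bases after the start, 5′ to 3′ on the gene's strand, from RefSeq for GRCm38.p6. Capitals mark matches to a search on both strands for the cyclic AMP response element TGACGTCA, the AP-1 site TGANTCA, the Egr site GCGNGGGCG and the CArG box, known binding motifs of CREB, Fos and Jun, Egr proteins and serum response factor.
Fosb (chr7:19309996-19310295, minus strand): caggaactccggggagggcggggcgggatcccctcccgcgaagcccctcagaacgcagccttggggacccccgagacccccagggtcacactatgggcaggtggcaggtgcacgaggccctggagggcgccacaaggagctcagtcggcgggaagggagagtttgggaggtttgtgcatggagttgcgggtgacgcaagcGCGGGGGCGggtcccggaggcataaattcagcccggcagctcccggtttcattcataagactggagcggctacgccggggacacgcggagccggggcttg
Npas4 (chr19:4989922-4990221, minus strand): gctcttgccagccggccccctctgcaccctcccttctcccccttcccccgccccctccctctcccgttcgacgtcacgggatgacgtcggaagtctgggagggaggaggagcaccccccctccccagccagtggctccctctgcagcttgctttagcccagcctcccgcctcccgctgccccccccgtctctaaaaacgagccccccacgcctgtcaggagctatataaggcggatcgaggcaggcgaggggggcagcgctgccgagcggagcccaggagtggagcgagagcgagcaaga
Btg2 (chr1:134079106-134079405, minus strand): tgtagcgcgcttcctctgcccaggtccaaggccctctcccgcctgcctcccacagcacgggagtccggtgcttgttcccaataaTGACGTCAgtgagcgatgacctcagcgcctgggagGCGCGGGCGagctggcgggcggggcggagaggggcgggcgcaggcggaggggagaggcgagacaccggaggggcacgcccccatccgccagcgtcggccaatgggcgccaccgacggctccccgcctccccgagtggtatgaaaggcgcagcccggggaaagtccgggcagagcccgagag
Fos (chr12:85473640-85473939, plus strand): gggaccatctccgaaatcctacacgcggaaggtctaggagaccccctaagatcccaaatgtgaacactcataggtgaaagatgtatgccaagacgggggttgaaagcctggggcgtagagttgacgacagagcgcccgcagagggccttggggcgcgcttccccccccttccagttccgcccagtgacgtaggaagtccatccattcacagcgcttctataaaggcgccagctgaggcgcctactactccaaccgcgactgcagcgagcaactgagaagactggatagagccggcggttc
The Fosb and Btg2 windows each held an Egr site, and the Btg2 window also held the cyclic AMP response element, with no overlap between these matches. The Npas4 and Fos windows held no match to these letters. Windows of the same length were available for 13 of the 15 tested genes of the transcription factor list. Of their 17 windows, 5 (29.4%) held an Egr site and 4 (23.5%) a CArG box, against 5.55% and 1.63% of all 32851 windows. The response element was in 1 of the 17 (5.88%, against 1.79% of all) and the AP-1 site in none (0%, against 7.81% of all). A match describes the letters only.

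Fosb encodes a partner of Jun in AP-1. It was at 0.627 to 2.11 CPM with a median of 1.61 in EE libraries and at 0.155 to 1.14 CPM with a median of 0.37 in SH libraries. The log2 fold change was 1.63 ± 0.40 (SE; unadjusted p = 0.000654, adjusted p = 0.163; 0.0479 with the block). EE lay above SH in every number, with overlap from SH replicate 6. Npas4, a transcription factor found mainly in neurons, was at 14.1 to 28.3 CPM in EE libraries (median 22.1), against 6.26 to 16 CPM in SH libraries (median 11). The log2 fold change was 1.00 ± 0.24 (SE; unadjusted p = 0.00132, adjusted p = 0.191; 0.0227 with the block).

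Fos was at 1.25 to 4.24 CPM with a median of 2.98 in EE libraries and at 0.167 to 2.92 CPM with a median of 1.08 in SH libraries, and its lowest library was SH replicate 1. The log2 fold change was 1.20 ± 0.42 (SE; unadjusted p = 0.013; adjusted p = 0.402, and 0.0452 with the block). Egr1, a zinc finger factor, was at 22.6 to 42 CPM in EE libraries (median 30.4), against 6.43 to 21.8 CPM in SH libraries (median 19), and the groups did not overlap. Its log2 fold change was 0.91 ± 0.28 (SE; adjusted p = 0.337), and it did not pass with the block (adjusted p = 0.459). Btg2, which restrains growth, was at 2.24 to 5.59 CPM with a median of 4.46 in EE libraries and at 1.55 to 3.9 CPM with a median of 2.78 in SH libraries, with a log2 fold change of 0.68 ± 0.24 (SE; unadjusted p = 0.00947). Egr2, Junb and Egr4 had log2 fold changes of 1.22, 0.61 and 0.66, and Ier5 had the smallest of the 15 at 0.06.

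**Figure D2:**
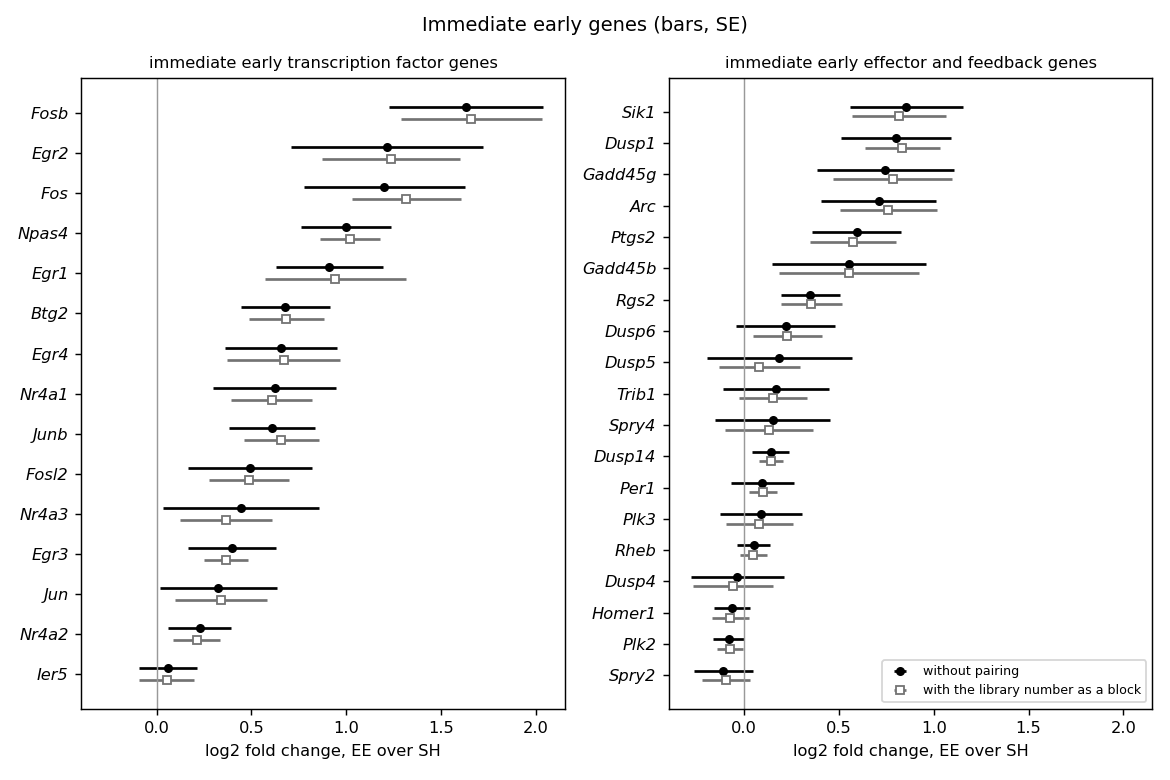
Log2 fold change of EE over SH with its SE for the immediate early genes tested, transcription factors at the left and effector and feedback genes at the right, without pairing (black) and with the library number as a block (grey). All 15 genes of the transcription factor list lie above 0, from 0.060 for Ier5 to 1.63 for Fosb.

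These are short genes, with a median span of 5.41 kb, and genes under 10 kb were higher in EE more often than not (60.9% of 2996 genes, median log2 fold change 0.054). All 15 were also higher without SH replicate 2, with a median of 0.66. None of the named ones passed the unpaired threshold there, with adjusted p-values of 0.0828 for Fosb and 0.167 for Npas4.

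Immediate early genes that act outside the nucleus or feed back on signalling had a smaller median difference. Of 19 tested, 15 were higher in EE, against 50.6% of all genes tested. The median length of the 19 genes was 8.2 kb, and 60.9% of all genes under 10 kb were higher. Their median log2 fold change was 0.17, and 5 of the 19 had an unadjusted p under 0.05, all higher (4.53% of all genes). The median depended on single libraries: it lay between 0.048 without EE replicate 6 and 0.32 without SH replicate 6, and leaving out any of 7 of the 12 libraries moved it by over 1.5 times. Sik1, a salt-inducible kinase gene, was at 1.08 to 4.8 CPM in EE libraries (median 3), against 0.812 to 2.34 CPM in SH libraries (median 1.59). Dusp1, which encodes a phosphatase of MAP kinases, was at 2.64 to 5.6 CPM with a median of 3.93 in EE libraries and at 0.835 to 3.28 CPM with a median of 2.82 in SH libraries. Their log2 fold changes were 0.85 ± 0.30 and 0.80 ± 0.29 (SE; unadjusted p = 0.00992 and 0.0137). Arc, whose protein acts in AMPA receptor endocytosis, averaged 24.8 ± 6.33 CPM in EE and 15.3 ± 6.6 CPM in SH libraries (SD, 6 libraries each; log2 fold change 0.71 ± 0.30, SE). Ptgs2 and Rgs2 were the other 2, at log2 fold changes of 0.59 and 0.35, whereas Homer1 was at -0.06.

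Among 23 late activity-regulated genes of secreted and synaptic proteins, 13 were higher and 10 lower in EE. An unadjusted p under 0.05 was reached by 7 as higher and by Sorcs3 as lower, against 4.53% and 4.14% of all genes. Stac, a gene of an adaptor protein, was at 7.36 to 12.7 CPM in EE libraries (median 10.5), against 3.67 to 8.57 CPM in SH libraries (median 5.99) (log2 fold change 0.76 ± 0.18, SE; adjusted p = 0.16). Bdnf, the neurotrophin gene often followed in enrichment studies, averaged 19.5 ± 4.43 CPM in EE and 18.9 ± 3.57 CPM in SH libraries (SD, 6 libraries each), a log2 fold change of 0.05 ± 0.16 (SE; unadjusted p = 0.76).

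Neuropeptide and granin genes had 14 of 21 tested members higher in EE, with a median of 0.16, and 7 with an unadjusted p under 0.05, all higher, against 50.6% of all genes higher and 4.53% higher at that level. Tac1 and Cartpt, both higher at that level, are also among the late activity-regulated genes above, so the counts of these lists overlap. The neuropeptide and granin genes had a median length of 7.29 kb, and 60.9% of all genes under 10 kb were higher in EE. The median of the neuropeptide list was 0.10 without SH replicate 4 and 0.25 without SH replicate 3. Chga, which encodes the granule protein chromogranin A, was at 32.5 to 41.9 CPM with a median of 39.1 in EE libraries and at 30.1 to 35.1 CPM with a median of 32.6 in SH libraries (log2 fold change 0.25 ± 0.066, SE; adjusted p = 0.187). Cartpt, the gene of a peptide of the same name, was at 1.1 to 1.91 CPM in EE libraries (median 1.76), against 0.543 to 1.16 CPM in SH libraries (median 0.812), and EE was higher in every number (log2 fold change 0.97 ± 0.26, SE). Tac1, which encodes substance P, was at 1.17 to 4.96 CPM with a median of 4.65 in EE libraries and at 0.568 to 3.17 CPM with a median of 1.59 in SH libraries. Its lowest EE and lowest SH library were both replicate 5, and its log2 fold change was 1.24 ± 0.36 (SE; adjusted p = 0.251; 0.0156 with the block). Sst, which marks a class of interneurons, averaged 8.65 ± 1.67 CPM in EE and 6.76 ± 0.576 CPM in SH libraries (SD, 6 libraries each; log2 fold change 0.35 ± 0.13, SE). Sst and Tac1 also mark cell types, and a difference in the number of cells of a type cannot be told apart from a difference in RNA per cell in bulk libraries.

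Genes of sterol and fatty acid synthesis were higher in EE for 22 of 29 tested members, with a median log2 fold change of 0.14. Of all genes tested 50.6% were higher. The median length of the list was 19.7 kb, and 57.5% of all genes from 10 to 30 kb were higher. Only 4 of the 29 had an unadjusted p under 0.05, all higher (4.53% of all genes). Dhcr7, which encodes the enzyme of the last step to cholesterol, was at 12.7 to 16.4 CPM in EE libraries (median 15.3), against 9.7 to 14.4 CPM in SH libraries (median 12.9) (log2 fold change 0.26 ± 0.10, SE; adjusted p = 0.438). EE was above SH in all 6 numbers, and the groups overlapped. Mvd and Hmgcs1 act early in the pathway, with log2 fold changes of 0.48 and 0.23. Leaving out SH replicate 2 gave 27 of the 29 higher and a median of 0.18.

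Adhesion, guidance and matrix genes lay on both sides of 0. Among 50 synaptic adhesion genes, 22 were higher and 28 lower in EE, and 4 higher and 5 lower had an unadjusted p under 0.05, 18% of the list against 8.67% of all genes. The list is one of long genes, with a median length of 302 kb, and 18.1% of all genes over 300 kb reached that level. Beside Tenm3, the contactin-associated gene Cntnap5a was at 708 to 855 CPM with a median of 794 in EE libraries and at 618 to 742 CPM with a median of 675 in SH libraries (log2 fold change 0.22 ± 0.054, SE; 0.0436 as adjusted p with the block). Among 43 axon guidance genes, 4 higher and 3 lower reached that level, 16.3% of the list against the same 8.67%. Their median length was 188 kb, and 13.4% of all genes from 100 to 300 kb reached it. Slit2, a secreted ligand of Robo receptors, was at 269 to 374 CPM in EE libraries (median 343), against 242 to 310 CPM in SH libraries (median 255), with EE above SH in every number. Plxna1, a receptor for semaphorins, was at 45.2 to 56.2 CPM with a median of 51.5 in EE libraries and at 56.3 to 66.1 CPM with a median of 60.5 in SH libraries, with no overlap. The log2 fold changes were 0.34 ± 0.082 for Slit2 and -0.23 ± 0.060 for Plxna1 (SE), and the adjusted p-values with the block were 0.0156 and 0.0396. Epha6, an ephrin receptor gene, had a log2 fold change of 0.34 ± 0.091 (SE) without the block and was higher in EE in 4 of the 6 numbers.

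Of 38 extracellular matrix genes, 18 were higher and 20 lower in EE, and 7 higher and 4 lower had an unadjusted p under 0.05, 28.9% of the list against 8.67% of all genes. The median length of these genes was 157 kb, and the share was 13.4% for all genes from 100 to 300 kb. Beside Abi3bp and Fras1, the fibrillar collagen gene Col11a1 averaged 37.5 ± 2.98 CPM in EE and 31 ± 1.05 CPM in SH libraries (SD, 6 libraries each) without overlap, a log2 fold change of 0.27 ± 0.062 (SE). Leaving out SH replicate 2 gave 24 of the 38 higher and a median of 0.10, against -0.030 with it, and over the 12 libraries left out in turn the median lay between -0.063 and 0.10. Ndst4 encodes an enzyme that modifies heparan sulphate chains. It was at 70.3 to 118 CPM in EE libraries (median 87.4), against 24.7 to 53.7 CPM in SH libraries (median 45.8). The groups did not overlap, and the log2 fold change of 1.11 ± 0.21 (SE; adjusted p = 0.153; 0.197 with the block) was opposite to that of the glypican gene Gpc6.

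**Figure D3:**
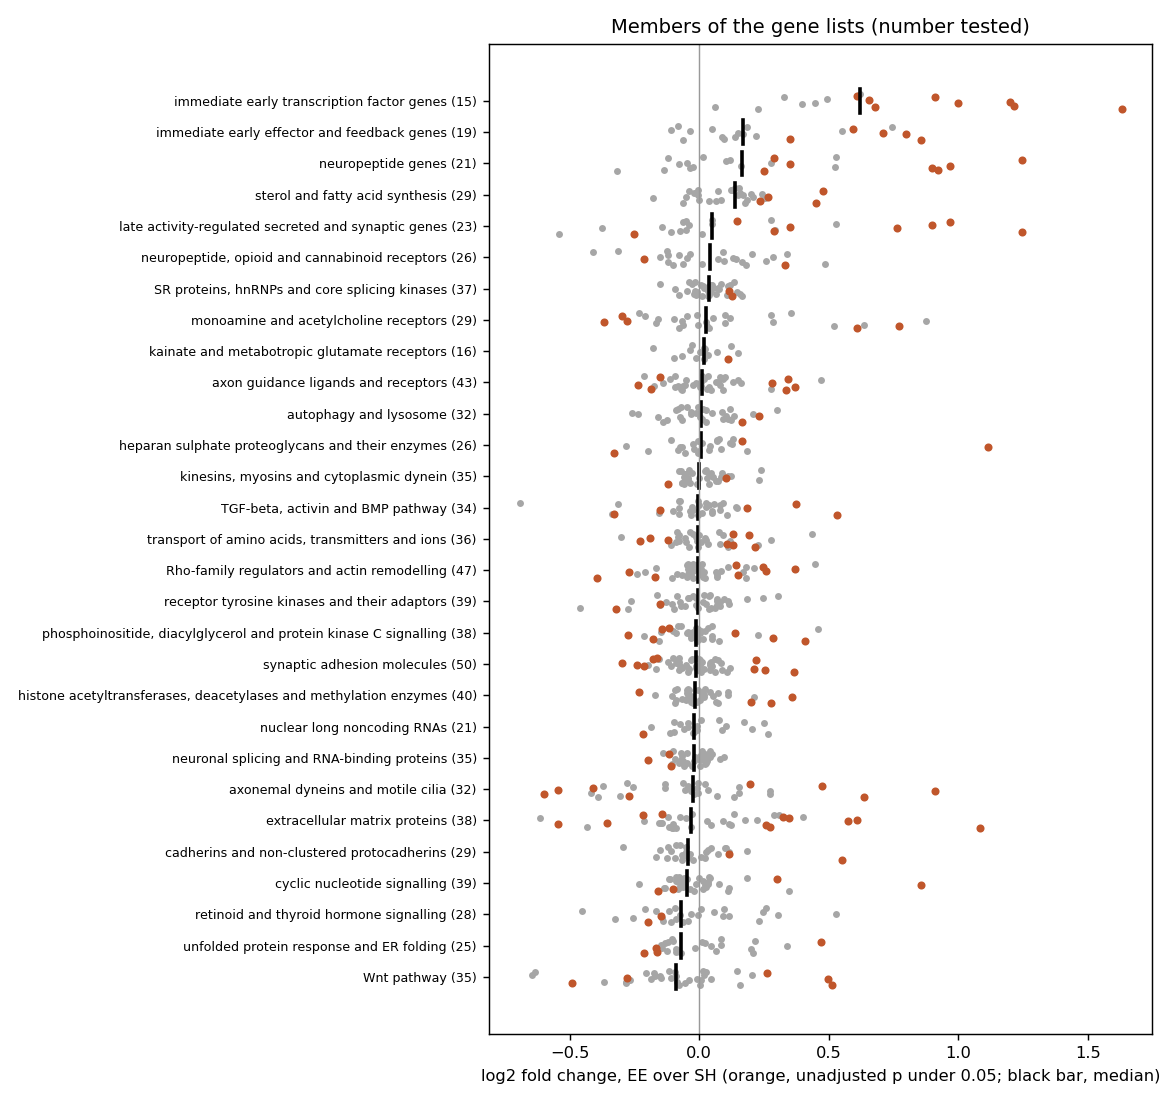
Log2 fold change of EE over SH for each tested member of the 29 gene lists, ordered by list median, with orange points for an unadjusted p under 0.05 and black bars at the medians. The list of immediate early transcription factors has its median at 0.62, and 25 lists have medians between -0.091 and 0.049.

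Of 29 monoamine and acetylcholine receptor genes, 2 higher and 3 lower had an unadjusted p under 0.05, 17.2% of the list against 8.67% of all genes. The groups did not overlap for 1 higher gene of the 29, Htr2c, and 1 lower gene, Adra1d (0.295% and 0.254% of all genes). Htr2c, a serotonin receptor gene on the X chromosome, was at 70.3 to 91.3 CPM with a median of 86.4 in EE libraries and at 39.1 to 67.8 CPM with a median of 56.8 in SH libraries, with no overlap (log2 fold change 0.61 ± 0.13, SE; adjusted p = 0.163). Hrh1, the histamine H1 receptor gene, was at 36.5 to 54.4 CPM in EE libraries (median 43.4), against 45.8 to 66.9 CPM in SH libraries (median 58.5), with EE below SH in every number (log2 fold change -0.37 ± 0.098, SE; adjusted p with the block 0.0156). Thrb, the thyroid hormone receptor beta gene, was at 662 to 764 CPM with a median of 694 in EE libraries and at 754 to 855 CPM with a median of 794 in SH libraries (log2 fold change -0.20 ± 0.047, SE; adjusted p = 0.153; 0.026 with the block). EE was below SH in all 6 numbers.

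Among 40 genes of histone and DNA modifying enzymes, 3 were higher and 1 lower at an unadjusted p under 0.05, 10% of the list and near the 8.67% of all genes. Hdac5, a class IIa histone deacetylase gene, was at 71.7 to 89 CPM in EE libraries (median 79.5), against 57.2 to 71.4 CPM in SH libraries (median 67.3), and Kdm6b, a histone H3 lysine demethylase gene, was at 20.9 to 24.7 CPM with a median of 22.1 in EE libraries and at 14.3 to 20 CPM with a median of 18 in SH libraries. For both genes, 2 of the 40, the groups did not overlap (0.548% of all genes). The log2 fold changes were 0.28 ± 0.063 and 0.36 ± 0.086 (SE), and the adjusted p-values with the block were 0.0156 and 0.0516. In the Wnt pathway 12 of 35 genes were higher (median -0.091), which became 17 of 35 with a median of -0.017 without SH replicate 2. Splicing factors of the SR and hnRNP families had 26 of 37 genes higher with a median of 0.039, and 20 of 37 with a median of 0.014 without SH replicate 2. Their median length was 17.8 kb, and 57.5% of all genes from 10 to 30 kb were higher. Only 2 of the 37 had an unadjusted p under 0.05 (5.41%), a smaller share than the 8.67% of all genes.

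The levels of cell type markers were set beside these genes. The 7 excitatory neuron markers summed to 1338 to 1477 CPM in EE, with a median of 1442, and to 1504 to 1670 CPM in SH libraries, with a median of 1551. The sums did not overlap (two-sided exact permutation p = 0.00216, the smallest possible, and adjusted p = 0.039 over 18 values compared). Of the 7 markers, 6 were lower in EE, 5 of them with an unadjusted p under 0.05 (4.14% of all genes). Camk2a, a kinase gene of excitatory synapses, averaged 886 ± 37.7 CPM in EE and 980 ± 47.8 CPM in SH libraries (SD, 6 libraries each; log2 fold change -0.15 ± 0.045, SE). It made up most of the sums, which averaged 1425 CPM in EE and 1576 CPM in SH libraries. Other lists of excitatory neurons lay on both sides. Higher in EE were 2 of 8 tested upper-layer markers, 7 of 10 layer 5 and 6 markers and 4 of 4 layer 6b and subplate markers. The 10 inhibitory markers summed to 795.3 to 1048 CPM in EE and 709.5 to 1233 CPM in SH libraries, which overlap. Without SH replicate 2, 10 of 13 astrocyte markers were higher in EE, against 1 of 13 with it.

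Markers of striatal projection neurons, which are not cortical cells, were mostly higher in EE: 11 of 12 tested, with a median log2 fold change of 0.52, and of 0.34 without SH replicate 5. Only Tac1 and Isl1 had an unadjusted p under 0.05. No striatal marker was at 0 in every library. All 13 markers together summed to 1225 to 2191 CPM in EE (median 1618) and to 1323 to 2132 CPM in SH libraries (median 1768; two-sided exact permutation p = 0.548, adjusted p = 0.815 over 18 values compared). Pde10a made up most of that sum. Without Pde10a, the other 12 markers summed to 172 to 529 CPM in EE (median 366) and to 102 to 369 CPM in SH libraries (median 257). EE was higher in 5 of the 6 numbers with wide overlap, and replicate 5 was the lowest library of both groups. Pde10a, a phosphodiesterase gene, was lower in EE, at 1050 to 1660 CPM in EE libraries (median 1220), against 1220 to 1760 CPM in SH libraries (median 1470), and EE was below SH in all 6 numbers.

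**Figure D4:**
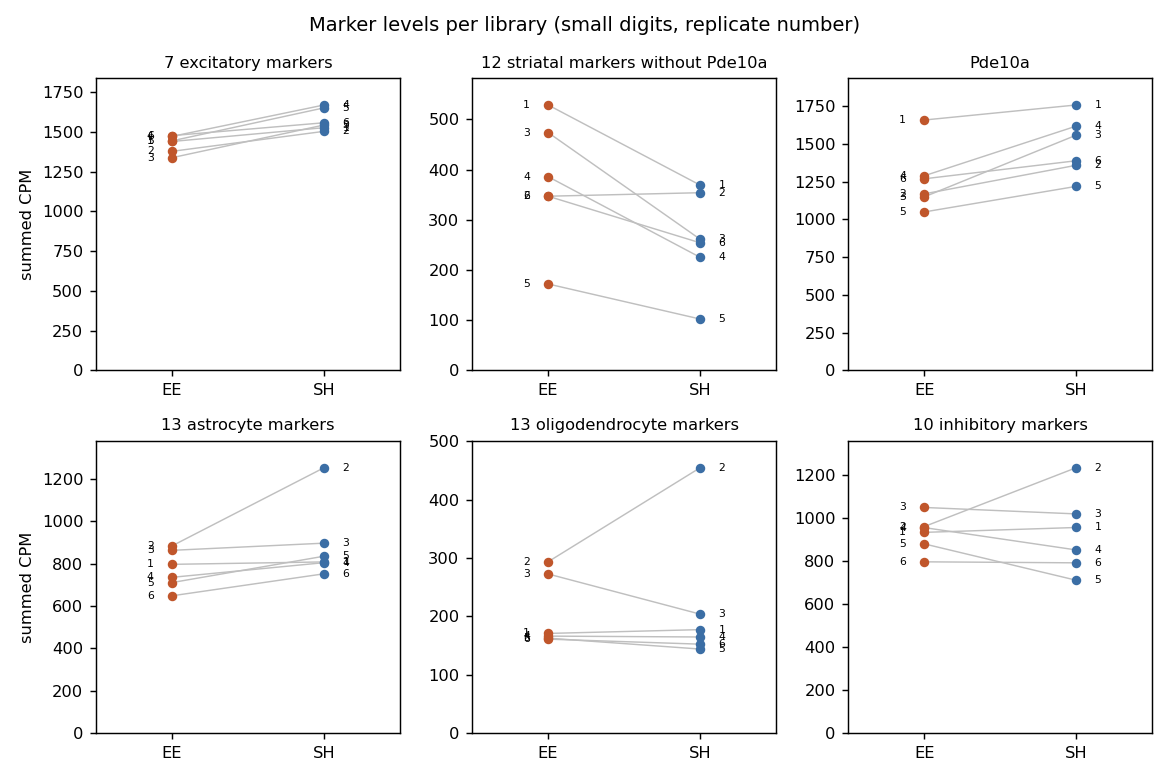
Summed CPM of cell type markers in each library, EE at the left and SH at the right, with grey lines joining libraries of the same number. The excitatory sums do not overlap (1338 to 1477 CPM in EE, 1504 to 1670 CPM in SH), SH replicate 2 is highest for astrocyte and oligodendrocyte markers, and the striatal sums without Pde10a are lowest in replicate 5 of both groups and overlap widely between EE and SH.

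These marker levels stand beside the genes called with the block. Of the 95, the striatal markers Rgs9, Tac1 and Drd2 were higher and Pde10a was lower in EE. Rgs9, which speeds the shut-off of G protein signals, was at 46.3 to 157 CPM with a median of 120 in EE libraries and at 23.1 to 109 CPM with a median of 76.7 in SH libraries. The groups overlapped widely, yet EE was above SH in each number, and the log2 fold change was 0.66 ± 0.36 (SE; adjusted p = 0.666) without and 0.69 ± 0.080 (SE; adjusted p = 0.0156) with the block. Ryr3, an intracellular calcium channel gene, was at 341 to 520 CPM in EE libraries (median 419), against 266 to 441 CPM in SH libraries (median 358), with the same pattern (adjusted p = 0.556 without and 0.0156 with the block). Gpr149 and Htr4, receptor genes, Trpc7, a cation channel gene, and Rreb1, a zinc finger gene, were also higher with the block, with log2 fold changes of 1.06 ± 0.17, 0.79 ± 0.11, 0.51 ± 0.087 and 0.64 ± 0.091 (SE). Heg1 and Arhgap15, of a membrane protein and a Rac regulator, were lower, at -0.35 ± 0.063 and -0.27 ± 0.052 (SE).

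With the mean log2 level of the striatal markers in each library added to the block model, an alternative chosen after seeing the data, 35 genes passed, 2 higher and 33 lower. None of the 95 was among them, and Rgs9, Tac1, Drd2 and Pde10a are themselves part of that level. The level was higher in EE than in SH for every number. Within the block it thus moved with housing, and this fit cannot tell the level and housing apart. When the level of non-neuronal markers was the covariate, with no block, 39 genes passed, 34 of them among the 95. Of the 95 genes, 30 of the higher and 30 of the lower ones were in none of the gene or marker lists. Being in no list does not set a gene apart from a marker level. Gng7 and Stk32a, in no list, were lowest in replicate 5 of both groups, as were the striatal sums without Pde10a. Klhl14, also higher and in no list, was not. The part of the cell type markers in the other differences was not tested.

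Fold change also varied with the length of the gene. Of genes under 10 kb, 60.9% were higher in EE, and of genes from 100 to 300 kb, 37.2% were. The median log2 fold change was 0.054, 0.024, -0.015, -0.034 and -0.027 from the shortest to the longest of 5 length classes. The median over all genes was 0.0019, and 0.025 with scaling by library totals. Without SH replicate 2 the class medians were 0.065, 0.029, -0.011, -0.024 and -0.021. An unadjusted p under 0.05 was reached by 6.61, 7.72, 7.59, 13.4 and 18.1% of the genes, again from the shortest class to the longest. The share of counts from genes over 100 kb was 68.65 ± 1.011% in EE and 69.21 ± 0.9289% in SH libraries (SD, n = 6 each; two-sided exact permutation p = 0.357). The part of these length differences in the gene lists was not tested.

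**Figure D5:**
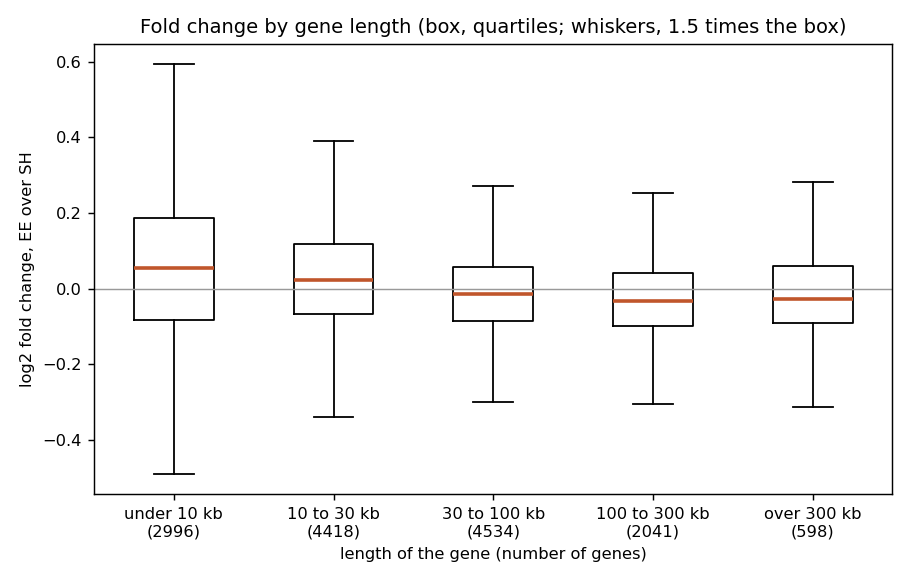
Log2 fold change of EE over SH by length of the gene, with boxes at the quartiles and orange lines at the medians. The median is 0.054 under 10 kb and -0.034 from 100 to 300 kb.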

How the data were processed

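Nuclear RNA of NeuN-sorted cortical nuclei was sequenced in 6 EE and 6 SH libraries of female mice. The deposited table holds raw counts per Ensembl gene, with no normalization by the authors. Per the submitters' processing notes STAR 2.5.4, SAMtools 1.3.1, DESeq2 1.16.1 and edgeR were among the tools and mm10 was the build. No source used here gives the read counter, the bases counted or the strand setting, so overlapping and antisense genes cannot be told apart. Columns were matched to samples by the sample codes in the labels, and 0 columns were left unused. Symbols were matched for 53274 of 53379 gene rows.

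Counts were fitted in edgeR 4.0.16 (R 4.3.3) with TMM scaling, the default low-count filter and a quasi-likelihood F test, with robust dispersion, for EE against SH, over all 14587 genes kept, with Benjamini-Hochberg adjustment and a threshold of 0.05. A log2 fold change divided by the square root of F gave the size of its SE. CPM are per TMM-scaled library. The fit was tested on simulated counts. Alternatives were DESeq2 1.42.0, limma 3.58.1, other scalings, no filter, covariates, the number as a block and leaving out each library.

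Named genes were the 12 with the smallest p in each direction (average log2 CPM of at least 1, no Gm or Rik symbols), up to 12 per direction called with the block, up to 3 per gene list, and 5 immediate early genes. The 29 gene lists and 15 marker lists, the naming rule and the comparison were chosen with earlier results of these data known. A list is described by counts and medians, without a test. Genes named outside that rule were chosen after their values were seen: they are 4921539H07Rik, members of the lists given beside their counts, and the genes in the other observations.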

Additional observations from a re-analysis of the deposited data

Results flagged for a closer look

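A library that lay far from the other 5 of its group was found for 26 of 250 values checked; chance flags about 1 in 20. SH replicate 2 accounted for 10 of them. It was highest for the summed markers of astrocytes (1250 CPM), oligodendrocytes (455 CPM), oligodendrocyte precursors (30.4 CPM), microglia (86.2 CPM) and vascular and meningeal cells (81.7 CPM). It was also highest for Bmpr1b (36.5 CPM) and Heg1 (51 CPM) and lowest for Gpc6 (752 CPM), Iqgap2 (105 CPM) and Khdrbs2 (294 CPM).

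EE replicate 1 was the highest EE library for Adgrl2 (217 CPM), Dync2h1 (151 CPM), Hsp90b1 (58.1 CPM), Igf1r (377 CPM), Sorcs3 (410 CPM) and the summed markers of layer 5 and 6 excitatory neurons (2200 CPM). Single flags were Kcnj4 in EE replicate 3 (highest, 40.3 CPM) and in SH replicate 6 (highest, 33.9 CPM), Chga and Tac1 in EE replicate 5 (lowest, 32.5 and 1.17 CPM), and Hnrnpl and Ulk1 in EE replicate 6 (highest, 102 and 29.6 CPM). Among SH libraries they were Slit2 in replicate 3 (highest, 310 CPM), Ppp1r15a in replicate 4 (lowest, 1.32 CPM) and Hnrnpl in replicate 5 (highest, 93 CPM). SH replicate 3 also had the lowest total, about 10600000 counts.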

How the results depend on the processing

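The count of genes with an adjusted p under 0.05, 0 as reported, moved with most choices. It was 121 with DESeq2 (5939 genes had no adjusted p), 168 without a filter on low counts, 1 with scaling by library totals, 32 with limma voom and library quality weights and 39 when the level of non-neuronal markers was a covariate. RLE scaling and limma voom gave 0, with 1269 and 1276 genes at an unadjusted p under 0.05. Leaving out 1 library gave 0 to 85 genes: 85 when SH replicate 2 was left out, 13 for EE replicate 1, 5 for SH replicate 1, 2 for SH replicate 6, 1 for EE replicate 6 and 0 for each of the others. With the replicate number as a block it was 95, and leaving out 1 number of both groups gave 5 to 308, with the highest count without replicate 2. The counts were 68 without replicate 1, 12 without replicate 3, 5 without replicate 4, 5 without replicate 5 and 44 without replicate 6. With the block and the striatal marker level as a covariate it was 35. The cause was not tested.

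As a check of the pairing, deviations of same-numbered libraries from their group means correlated across genes at 0.17, 0.31, 0.036, 0.077, 0.19 and 0.098 for replicates 1 to 6, and 7 of the 12 libraries correlated best with their own number. All 6 were positive, and 3 were below 0.1. Libraries of different numbers correlated at -0.28 to 0.34, so the highest of these values was above every same-number value. The EE libraries of replicates 3, 4 and 6 correlated best with an SH library of another number. The block is not the basis of the results, since the labels do not say that same-numbered libraries belong together. These correlations are a hint from the data, not from the design, and do not settle whether the numbers are pairs.

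For the 108 named genes, all 2268 values under the alternatives kept their direction, and 270 passed the threshold. These genes were taken for their small p, over all genes or within a list, and the alternatives use the same libraries. A kept direction is therefore no independent evidence. Of 924 list medians under the same alternatives, 4 moved by more than the spread between libraries. Scaling by library totals shifted the median log2 fold change of all genes to 0.025. Genes at a few CPM, such as Fosb and Tac1, rest on few counts per library.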

Other observations

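The following genes are among the 95 called with the number as a block and were chosen after their values were seen. Ntm and Opcml encode adhesion proteins of the IgLON family. Ntm averaged 2969 ± 138 CPM in EE and 3367 ± 115 CPM in SH libraries and Opcml 4882 ± 192 CPM in EE and 5587 ± 441 CPM in SH libraries (SD, 6 libraries each), with log2 fold changes of -0.18 ± 0.039 and -0.19 ± 0.043 (SE; adjusted p with the block 0.0396 and 0.0479). EE was below SH in all 6 numbers for both. Adcy5, Gng7 and Drd2 encode an adenylate cyclase, a G protein gamma subunit and the dopamine D2 receptor. They were higher in EE with the block, by log2 fold changes of 0.35 ± 0.062, 0.57 ± 0.090 and 0.54 ± 0.11 (SE), whereas their unadjusted p-values without the block were 0.143, 0.0717 and 0.245. With the striatal marker level of the libraries as a covariate beside the block, none of the 95 passed. That level was higher in EE for every number, so the loss of these calls cannot be assigned to it apart from housing.

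Ntn1, a guidance ligand, and Epha4, an ephrin receptor, were called with the block in opposite directions. Ntn1 averaged 19.9 ± 5.22 CPM in EE and 14.3 ± 5.07 CPM in SH libraries, and Epha4 averaged 252 ± 16.8 CPM in EE and 287 ± 23.8 CPM in SH libraries (SD, 6 libraries each). The chromatin remodelling ATPase gene Smarca2 averaged 276 ± 23.4 CPM in EE and 320 ± 8.41 CPM in SH libraries (SD, 6 libraries each; adjusted p with the block 0.026).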
